A study of Mus musculus with 4 samples.

Results

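The 36 cell cycle genes described here comprise 14 genes used when DNA is copied (replication members) and 22 used when chromosomes are separated (mitotic members). They were found by gene symbol in the gene list of each of the 4 libraries, which holds 27998 genes for cells and 48816 for nuclei, and all 36 were present in every list. All mice were CBA/J, 30 days old (P30), the tissue was the stria vascularis (SV), and the labels name no treatment, sort or gate. Whole cells were taken in 3 captures (scRNA-Seq) and nuclei in 1 (snRNA-Seq). Each suspension pooled animals, about 12 mice for cells and about 10 for nuclei by the labels, so that the capture is the replicate and nothing can be said of single mice. The study's methods give other numbers of mice for the cells and, in 1 passage, for the nuclei. Droplets were counted as unique molecular identifiers (UMIs) per gene and barcode, and a barcode with at least 5 UMIs over the 36 members is called cycling below. That name stands for the count alone.

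A dividing cell first licenses its replication origins, then copies its DNA, and then condenses and separates its chromosomes, and most genes needed for these steps are transcribed only shortly before they are used. Resting cells therefore hold few transcripts of mitotic genes, whereas some replication genes also serve DNA repair or chromatin and are kept on at a low level. The SV is the epithelium of the cochlear lateral wall that makes the endocochlear potential, and its marginal, intermediate and basal cells and the neighbouring spindle and root cells are long-lived in the adult ear. Red cell precursors, early B cells and early neutrophils divide rapidly before they mature.

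Among the replication members, Mcm2, Mcm3, Mcm4, Mcm5, Mcm6 and Mcm7 form the helicase that opens replication origins. Pcna is the sliding clamp of the polymerases, Rrm1 and Rrm2 are the subunits of ribonucleotide reductase, and Tyms makes thymidylate. Ccne1 and Ccne2 are the E cyclins of S phase entry, Gmnn (geminin) blocks a repeated round of licensing, and Ezh2 is a histone methyltransferase. Among the mitotic members, Cdk1, Ccna2, Ccnb1 and Ccnb2 make up the mitotic kinase, and Plk1, Aurka and Aurkb are further kinases of division. Bub1 and Bub1b act in the spindle checkpoint, Birc5 is a chromosomal passenger, and Cdc20 and Ube2c work with the anaphase-promoting complex. Cenpa, Cenpe and Cenpf belong to the centromere and kinetochore. Kif11, Kif23, Tpx2, Nusap1 and Hmmr act on the spindle, Mki67 coats mitotic chromosomes and Top2a untangles DNA.

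The promoters of 4 members are printed because they show the letters by which the replication and mitotic members differed most. The sequences are those of RefSeq on GRCm38.p6, from base 150 to base 1 before the start of the gene, on the gene's own strand. Capitals mark matches, on either strand, to TTTGAA (the cell cycle homology region), CCAAT (the CCAAT box) or TTTNNCGC (an E2F motif). Matches that overlap, as in Mcm6, are in 1 run of capitals.
Top2a, mitotic, chr11:99024190-99024339, minus strand: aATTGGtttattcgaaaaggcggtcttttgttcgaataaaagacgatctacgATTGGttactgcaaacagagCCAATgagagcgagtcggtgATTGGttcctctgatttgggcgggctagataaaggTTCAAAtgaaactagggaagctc
Mki67, mitotic, chr7:135716380-135716529, minus strand: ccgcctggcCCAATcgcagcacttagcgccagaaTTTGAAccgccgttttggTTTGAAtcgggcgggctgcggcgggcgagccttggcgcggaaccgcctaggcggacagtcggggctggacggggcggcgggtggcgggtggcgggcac
Mcm5, replication, chr8:75109359-75109508, plus strand: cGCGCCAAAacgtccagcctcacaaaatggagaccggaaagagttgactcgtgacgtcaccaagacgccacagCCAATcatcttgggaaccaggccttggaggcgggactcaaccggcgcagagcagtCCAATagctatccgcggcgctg
Mcm6, replication, chr1:128359706-128359855, minus strand: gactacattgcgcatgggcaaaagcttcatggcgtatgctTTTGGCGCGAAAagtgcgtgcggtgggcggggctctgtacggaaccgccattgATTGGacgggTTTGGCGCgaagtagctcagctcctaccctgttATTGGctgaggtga

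RefSeq promoters of 300 bases, 250 before the start and 50 after it, were matched for 30 of the 36 members. Tpx2, Aurkb, Ccna2, Ccne2, Mcm4 and Gmnn were not matched. TTTGAA stood in 14 of 19 mitotic members and 1 of 11 replication members, beside 17.9% of all 32851 promoter sequences. TTTNNCGC stood in 6 of 11 replication members and 1 of 19 mitotic members, beside 5.17% of all promoters. CCAAT was frequent in both, in 9 of 11 and 17 of 19, beside 37.4% of all promoters. A match is a description of letters and not a site of binding.

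The 3 captures of cells held 392, 1358 and 1580 barcodes with a median of 5054, 4938 and 3878 UMIs, and the nucleus capture held 11057 barcodes with a median of 1561. Barcodes with fewer than 200 genes or with a doublet score among the highest of their capture were left out, which kept 377, 1315, 1463 and 9785 barcodes. The libraries had 9, 34, 38 and 65 barcodes that also occur in another library. Classes were assigned to clusters from marker genes, with cell cycle genes kept out of the genes used for clustering. The names below stand for marginal-like, intermediate-like, basal-like and spindle/root-like barcodes (the SV types) and for erythroid-like, B cell-like and neutrophil-like barcodes, which with 1 mixed cluster of nuclei make up the blood lineages. Each class held its own markers. The 10 erythroid markers, mostly hemoglobin genes, summed to 666660 to 839856 CPM (a gene's share of all UMIs of a sum, on the usual counts-per-1e6 scale) in erythroid barcodes of a library and to 135 to 12983 in SV types, the 11 B cell markers to 4354 to 11475 against 0 to 14.03, and the 11 neutrophil markers to 54809 to 217938 against 0 to 193. Of the B cell markers, Ighm was not counted in cells, so that their sums in cells hold 10 genes and those in nuclei 11. The marginal, intermediate, basal and spindle/root lists reached at least 2330, 20582, 1734 and 4192 in their own classes and at most 719, 3838, 99.2 and 2462 in blood lineages. Intermediate markers were also present in other SV types, at up to 9557 CPM in marginal cells of capture 1, where marginal markers summed to 3061. In another SV type, marginal markers reached up to 1932 and basal markers up to 1637 CPM. These values are near the lowest of their own classes, 2330 and 1734. Spindle/root markers reached at most 218. The part this had in comparisons among the SV types was not tested. The mixed cluster of 33 nuclei carried the name T or NK cell-like by the marker rule, with 7 of 8 markers detected that summed to 853 CPM, but none was among its 10 leading genes. Those were Ifitm1, Ccl5, Ms4a4b, Plac8, Cox6a2, Runx1, Angpt1, Siglech, H2-Aa and Cdk6, and neutrophil markers summed to 668 CPM in it, so it is given no cell type below. No name was given to 1475 of 3155 barcodes of cells and 2786 of 9785 nuclei, many in clusters led by mitochondrial genes. Among them, clusters of 135, 120, 65 and 45 cells scored highest for erythroid markers and stayed unnamed only because mitochondrial genes led them. They held 0, 1, 0 and 0 barcodes with at least 5 member UMIs. Counted as erythroid, they would lower the cycling share of blood lineages in the summed cells given below. Intervals below are exact and cover counting error only.

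Few barcodes were cycling, and they held most of the members' UMIs. Before any filter, cycling barcodes were 7 of 392 in capture 1 (1.79%), 8 of 1358 in capture 2 (0.589%), 74 of 1580 in capture 3 (4.68%) and 202 of 11057 nuclei (1.83%). They held 54.7%, 43.4%, 88.6% and 78.4% of all member UMIs. Capture 3 thus had most of the cycling cells. Between 61.7% and 80.8% of the barcodes of a library had no member UMI at all. Just under the limit, 4, 6, 7 and 26 barcodes had 4 member UMIs, and just above it 2, 2, 5 and 11 had exactly 5. At the upper end, 2, 4, 50 and 134 barcodes had 20 or more, and the highest had 176, 162, 475 and 242.

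**Figure D1:**
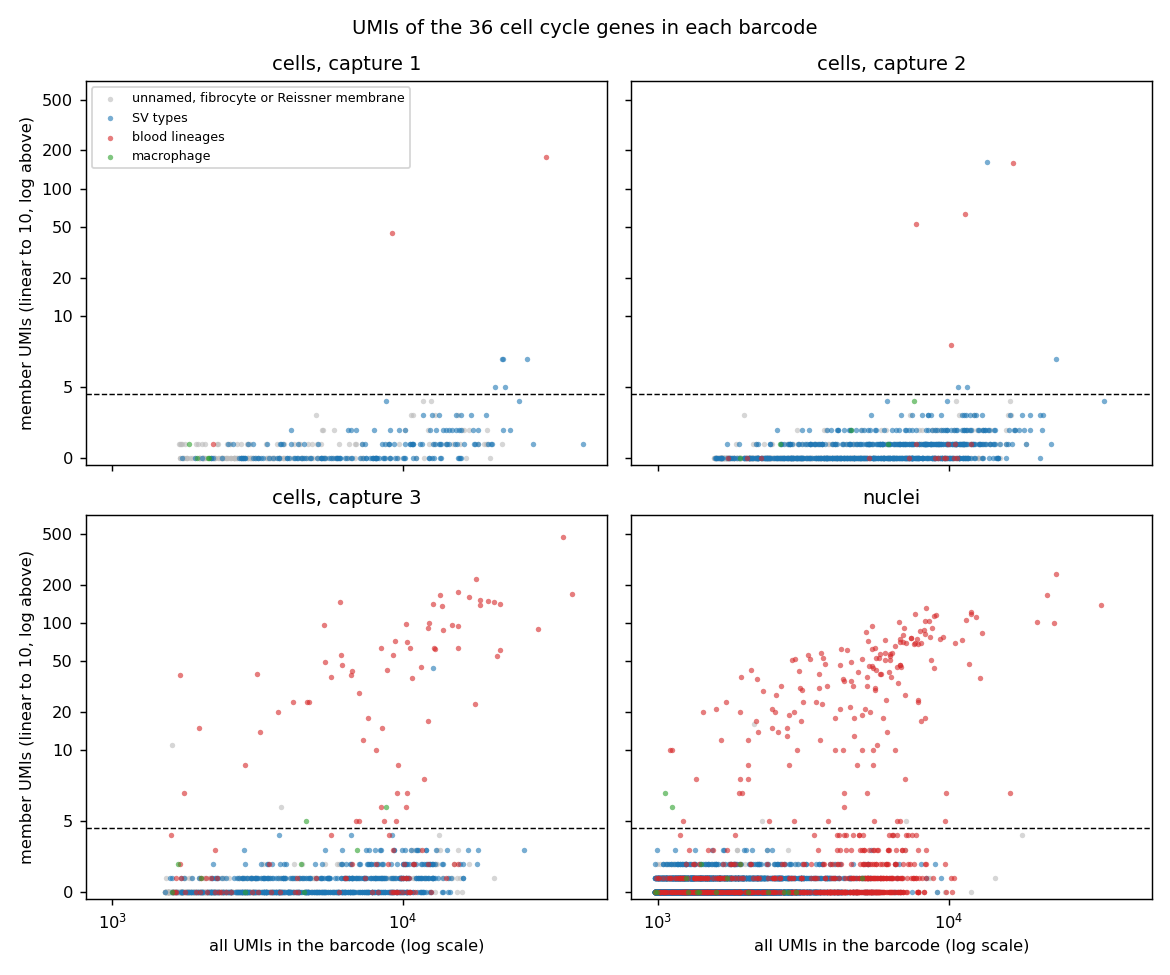
Member UMIs (vertical axis, linear to 10 and logarithmic above) against all UMIs (horizontal axis, logarithmic) of each kept barcode in the 3 captures of cells and the nuclei, with the limit of 5 as a dashed line. Blood lineages fill the upper part in capture 3 and in the nuclei, whereas SV types stay at 3 or fewer in the nuclei and reach 5 in 10 barcodes of cells.

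The cycling barcodes of capture 3 and of the nuclei were mainly those of the blood lineages. By capture, 2 of 7, 4 of 8 and 68 of 73 kept cycling cells were in a blood lineage, and 5, 4 and 1 in an SV type. Of the 88 in all, 74 (84.1%) were in a blood lineage, 10 in an SV type, 2 were macrophage-like and 2 unnamed. Without capture 3 blood lineages held 6 of 15 (40.0%, interval 16.3 to 67.7). Of the 56 with 20 or more member UMIs, 54 were in a blood lineage. In the nuclei, 174 of 179 (97.2%) were in a blood lineage, as were all 123 with 20 or more, and none was in an SV type.

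The share of each side that was cycling differed in the same direction in all libraries. In capture 1, 2 of 3 blood barcodes (66.7%) and 5 of 180 SV barcodes (2.78%) were cycling. In capture 2, these were 4 of 19 (21.1%) and 4 of 701 (0.571%). In capture 3, these were 68 of 136 (50.0%, interval 41.3 to 58.7) and 1 of 623 (0.161%). The difference of 63.9, 20.5 and 49.8 percentage points had a mean of 44.7 ± 22.1 (SD, n = 3 captures), and the exact two-sided sign-flip permutation test gave p = 0.25, the smallest that 3 captures allow. Capture 1 rested on 3 blood barcodes, and without it the mean was 35.2. Without the filter on genes, clusters were formed and named anew, and the mean was 20.0. The part that the added barcodes alone had in this was not tested. With classes set per barcode the mean was 29.0.

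The nuclei gave 174 of 837 cycling blood barcodes (20.8%, interval 18.1 to 23.7) and 0 of 5878 SV nuclei, for which the exact interval reaches up to 0.0627%. With 1 nucleus library there is no test. Blood nuclei were deeper than SV nuclei, with a median of 4121 and 1465.5 UMIs. With each barcode thinned to 1000 UMIs and a limit of 2 member UMIs, 21.0% of blood nuclei and 0.771% of SV nuclei were past the limit, against 32.8% and 2.02% before thinning. In cells the same thinning gave 64.8%, 16.6% and 41.8% of blood barcodes in captures 1 to 3, and 0.302%, 0.498% and 0.609% of SV barcodes. The blood side was higher in all 4 libraries at this fixed depth, from which 144 SV nuclei and 4 blood nuclei were too shallow to be used.

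**Figure D2:**
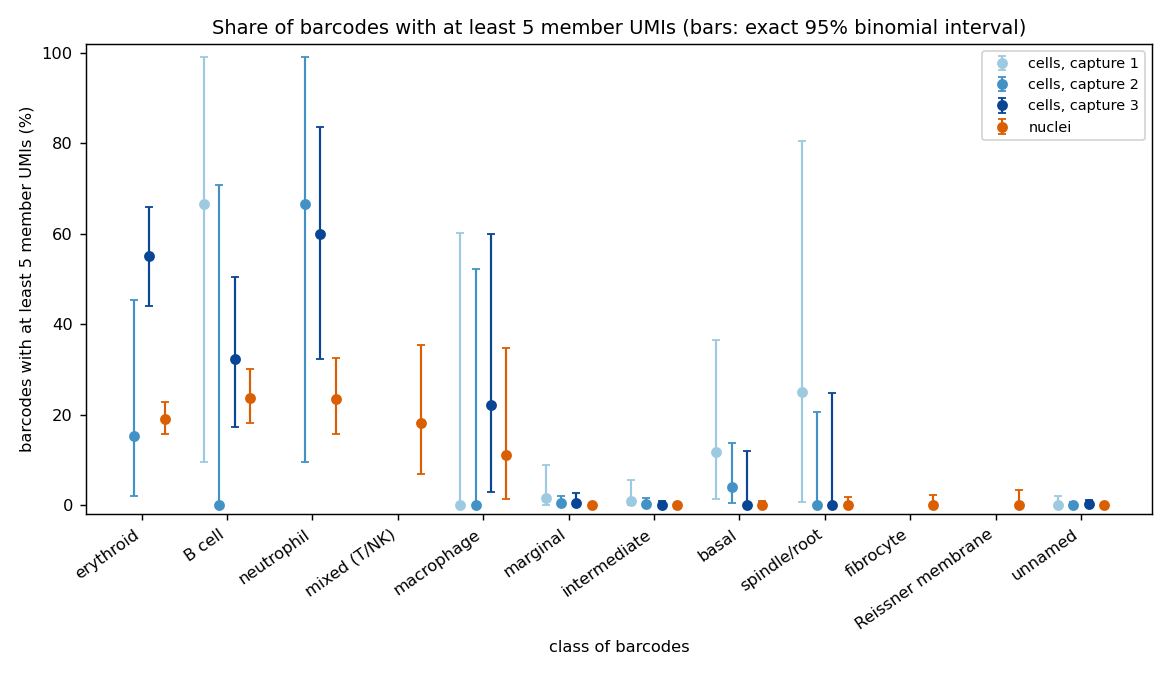
Share of barcodes with at least 5 member UMIs (percent) by class, for 3 captures of cells and the nuclei, with exact binomial intervals as bars. The column "mixed (T/NK)" holds the mixed cluster of 33 nuclei. Erythroid, B cell and neutrophil barcodes of capture 3 lie between 32.4% and 60%, and the 4 SV types of the nuclei lie at 0.

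Each of the 3 main blood lineages contained cycling barcodes, in cells and in nuclei. Of erythroid barcodes, 2 of 13 were cycling in capture 2, 48 of 87 (55.2%) in capture 3 and 94 of 491 nuclei (19.1%), and capture 1 had none. Of B cell barcodes, 2 of 3, 0 of 3 and 11 of 34 (32.4%) were cycling in captures 1 to 3, and 49 of 206 nuclei (23.8%). In cells this class also held T cell markers, with Cd3d, Cd3e and Cd3g at 106, 50.0 and 83.3 CPM beside Cd79a at 1455. Others of the T or NK list were low in it, with Nkg7 at 5.55 and Il2rb at 0. How many of its barcodes were T cells was not tested. Of neutrophil barcodes, 2 of 3 were cycling in capture 2, 9 of 15 (60%) in capture 3 and 25 of 107 nuclei (23.4%). A cluster of 33 of these nuclei held 14 cycling ones. Its levels of Elane, Mpo, Prtn3 and Ctsg were 4451, 1716, 1836 and 1266 CPM. S100a8 and S100a9 were at 502 and 59.9, beside 178872 and 87614 in the cluster with 11 of 12 cycling. Camp, at 74.9, was the highest of the remaining neutrophil markers. Of macrophage markers the cluster of 33 held Csf1r, Cx3cr1 and Adgre1 at 74.9, 89.9 and 112 CPM, with C1qb and C1qc at 0. Its neutrophil name is thus uncertain, and whether it held other myeloid precursors was not tested. The intervals of the 3 lineages overlapped in capture 3 and in the nuclei. The mixed cluster had 6 of 33 (18.2%), 1 of them with 20 or more member UMIs, and without it 168 of 804 blood nuclei (20.9%) were cycling.

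Among other nuclei, 0 of 158 fibrocyte-like and 0 of 108 Reissner membrane-like nuclei were cycling, with exact intervals that reach up to 2.31% and 3.36%. Macrophages, counted on neither side, gave 0 of 4, 0 of 5 and 2 of 9 cells and 2 of 18 nuclei. The cells had 5 and 6 member UMIs. The 2 nuclei had 6 and 7 and held 14 and 22 UMIs of neutrophil markers but 0 and 1 of macrophage markers, so that they went against the name of their cluster.

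The 10 cycling SV cells were unlike the blood ones. By their clusters they comprised 4 basal, 3 marginal, 2 intermediate and 1 spindle/root barcode. The 3 marginal barcodes held 61, 11 and 14 UMIs of marginal but 227, 134 and 100 of intermediate markers. The spindle/root barcode held 87 of its own and 104 of marginal markers, and 1 basal barcode 106 of its own and 226 of intermediate markers. In the remaining basal and the 2 intermediate barcodes their own markers were the most numerous. In 8 of the 10, the members summed to 5 to 7 UMIs, and 6 of these 8 had no UMI of a mitotic member. The UMIs came from Pcna, Mcm2, Mcm4, Mcm5, Mcm6, Mcm7, Rrm1, Gmnn and Ezh2, with a single UMI of Cenpa in 1 barcode and of Cenpf in another. These 8 barcodes were deep, with 10782 to 26615 UMIs, or 2.18 to 5.27 times the median of their capture.

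The other two held mitotic members. An intermediate barcode of capture 2 had 162 member UMIs among 13604 UMIs, 154 of them from mitotic members. It held 23 of the 36 members, led by Cenpf with 30 UMIs, Cenpa with 17 and Top2a with 15, but 0 UMIs of Ccnb2, Plk1 and Bub1. It also had 183 UMIs of intermediate markers, 4 of erythroid markers and 0 of B cell, neutrophil and macrophage markers, and its doublet score was at percentile 15.4 of its capture. A barcode of a marginal cluster in capture 3 had 44 member UMIs, 27 from replication and 17 from mitotic members, with Rrm2 at 8 UMIs and Tyms at 5. It held 14 UMIs of marginal, 100 of intermediate and 20 of erythroid markers, and its doublet score was at percentile 54.4. Both barcodes passed the doublet filter, and whether they were single cells was not tested.

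**Figure D3:**
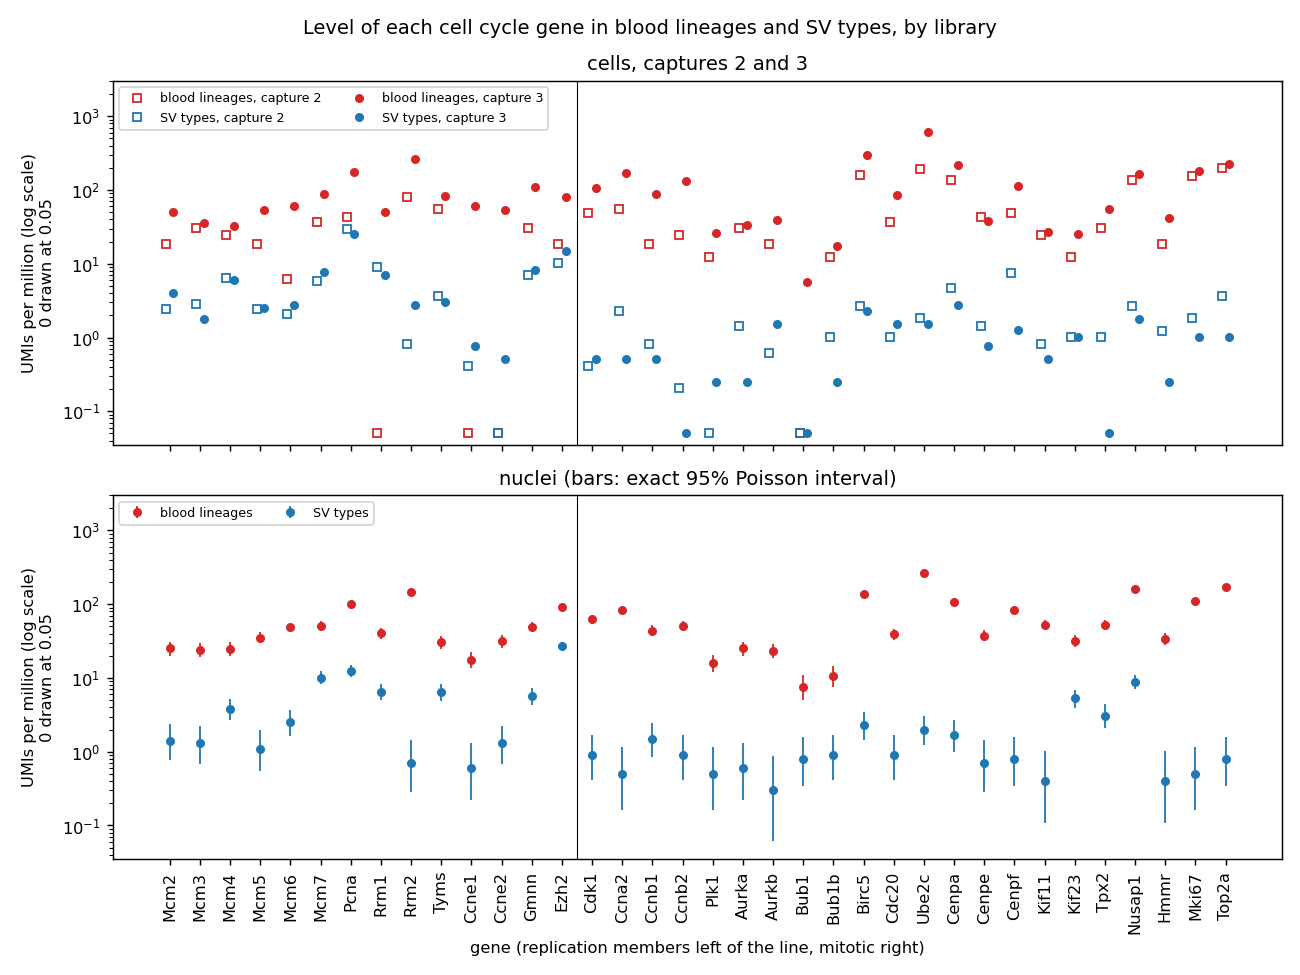
Level in CPM (logarithmic axis, 0 drawn at 0.05) of each member summed over blood lineages (red) and SV types (blue), for cells of captures 2 and 3 and for nuclei with exact Poisson intervals as bars. In the nuclei all 36 members are higher in the blood lineages, and the gap is widest among mitotic members at the right.

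The level of each member, as its share of all UMIs of a side, was higher in blood lineages for nearly all members. In the nuclei this held for all 14 replication and all 22 mitotic members. In capture 3 it held for all 36, and in capture 2 for 11 of 14 and 21 of 22. The members of a side were summed over its barcodes, so that more dividing cells and more transcripts per dividing cell cannot be told apart. The summed level of replication members, in CPM, was 13.3 times that of SV types in blood lineages of the summed cells and 8.87 times in nuclei. For mitotic members the ratio was 97.0 times in cells and 46.4 times in nuclei. Capture 3 gave most of the blood UMIs behind the values for cells. Replication members had ratios of 4.38 in capture 2 and 13.7 in capture 3, and mitotic members 36.4 and 139.

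Ube2c had the highest level of the 36 in blood lineages of capture 3 and of the nuclei, whereas Top2a was above it in captures 1 and 2. Its level in blood lineages was 259, 190 and 614 CPM in captures 1 to 3 and 263 in nuclei, and in SV types 1.19, 1.85, 1.52 and 2.00. Top2a was at 471, 196 and 224 CPM in blood cells and 170 in blood nuclei, and at 0, 3.70, 1.01 and 0.798 in SV types. Mki67, the usual histological label of dividing cells, was at 188, 153, 181 and 111 CPM on the blood side. On the SV side Mki67 had 0, 9, 4 and 5 UMIs in all. The ranges of both sides did not overlap for any of the 3, and capture 1 rested on 3 blood barcodes. How many of all genes would show the same was not computed, so this is a description only. For Rrm1, given below, the ranges did overlap.

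Rrm2 had the largest ratio of blood lineages to SV types of the replication members in capture 2 and in nuclei, and Ccne2 in capture 3, where Ccne2 had 65 UMIs in blood lineages and 2 in SV types. Rrm2 was at 94.1, 79.5 and 264 CPM in blood cells and 146 in blood nuclei, and it had 0, 4, 11 and 7 UMIs in all SV types. Its partner Rrm1 behaved otherwise. Rrm1 was at 70.6, 0 and 50.0 CPM in blood cells and 40.6 in blood nuclei, against 11.9, 9.05, 7.09 and 6.49 in SV types, so that in capture 2 the SV types were higher. The blood level of Rrm1 in capture 2 rested on 0 UMIs over 19 barcodes.

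Pcna and Ezh2 had the highest levels in SV types in captures 2 and 3 and in nuclei, Pcna and Rrm1 had them in capture 1, and Kif23 was unevenly spread among them. Pcna was at 306, 42.8 and 176 CPM in blood cells and 101.99 in blood nuclei, and at 24.9, 29.2, 25.3 and 12.5 in SV types. Ezh2 was at 259, 18.4 and 79.5 CPM in blood cells and 90.4 in blood nuclei, and at 5.92, 10.3, 14.7 and 26.8 in SV types, where 4.36% of nuclei had at least 1 UMI of it. Its ratio of 3.37 in the nuclei was the smallest of the 36. Of the 53 UMIs of Kif23 in SV nuclei, 47 lay in marginal nuclei, at 11.4 CPM (8.36 to 15.1), beside 6 in intermediate nuclei at 1.26 (0.461 to 2.73) and 0 in basal and in spindle/root nuclei.

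Bub1 had 4, 0, 7 and 27 UMIs in the blood lineages of the 3 captures and the nuclei and 0, 0, 0 and 8 in SV types. Ccnb2 had 4, 4, 161 and 180 UMIs against 0, 1, 0 and 9, and Plk1 had 35 UMIs in blood cells of all captures against 1 in SV cells. With so few SV counts these 3 are given here as counts only. The fitted difference of Ccnb2 given below rests on 1 UMI in SV cells.

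**Figure D4:**
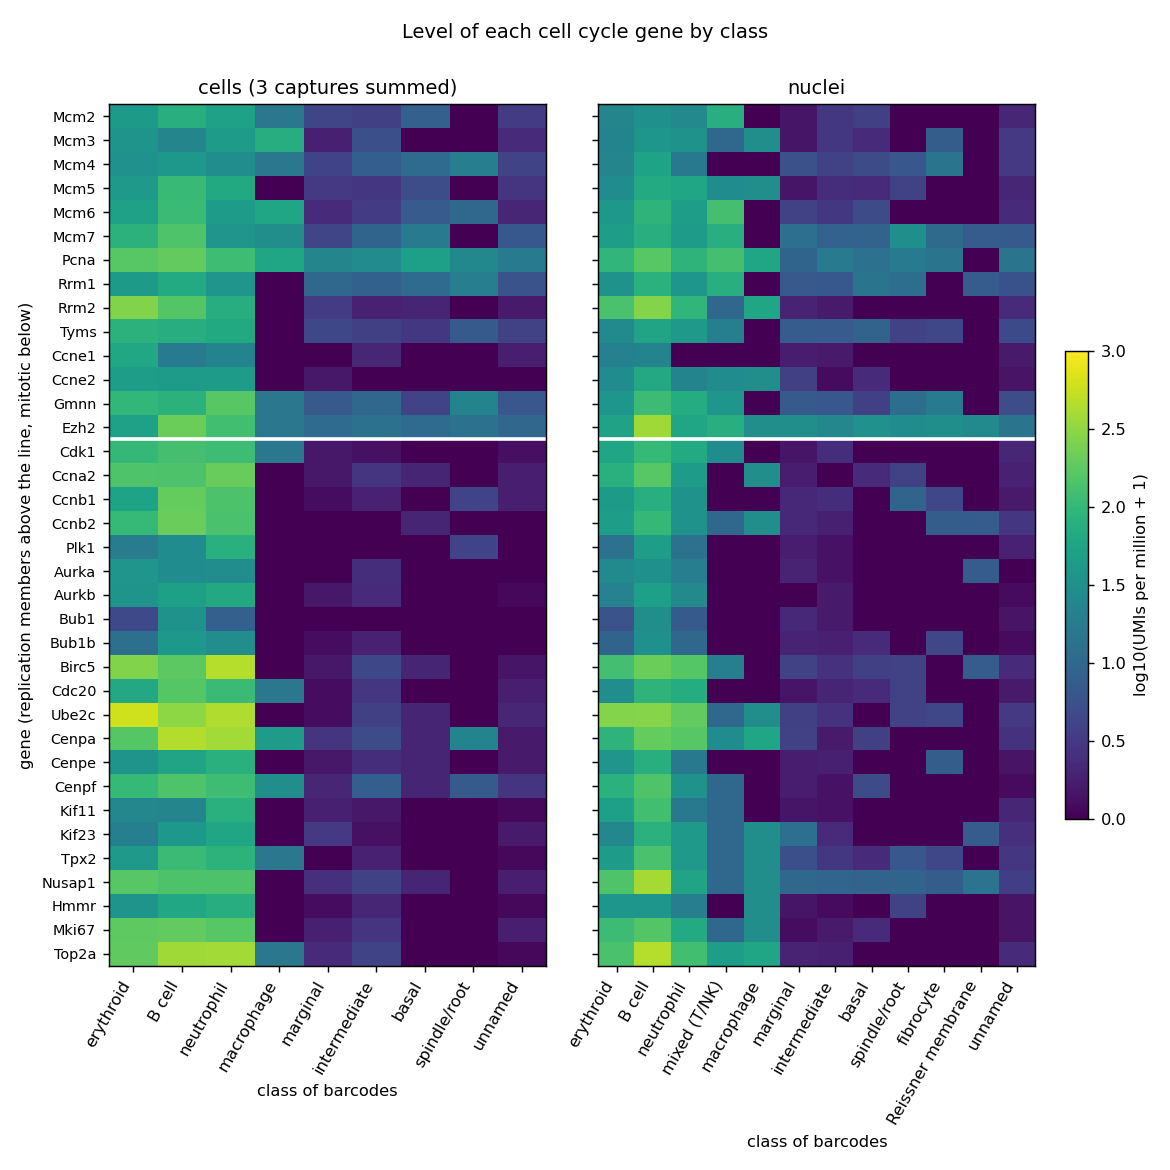
Level of each member (log10 of CPM plus 1, as colour) in each class, for the 3 summed captures of cells and for nuclei, with replication members above the line and mitotic members below. Erythroid, B cell and neutrophil columns are bright for most members but not for all. Bub1, for example, had 4 UMIs in the 50 cycling erythroid cells and 1 in the 11 cycling neutrophil cells. In SV types Pcna and Ezh2 stand out among low values.

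UMIs were next summed per capture, and each gene was fitted by quasi-likelihood in edgeR, with captures as blocks and p-values adjusted after Benjamini and Hochberg. A class entered where a capture had at least 5 barcodes of it, which left blood sums of captures 2 and 3 only and 1 residual degree of freedom for the pooled blood sums. In the pooled comparison of blood lineages with SV types, 33 of 33 members tested were higher in blood at an adjusted p under 0.05, beside 12.4% of all 9618 genes tested called higher and 26.8% called in either direction. Bub1, Ccne1 and Ccne2 were filtered out for low counts. Most members passed that filter through their blood sums alone, and on sums of the SV types only Pcna passed it, so that a member tested was almost bound to differ. The count is therefore no separate evidence.

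For Pcna, which passed on either side, the log2 fold difference between blood and SV types was 2.95 ± 0.74 (SE) with an adjusted p of 0.00064 in edgeR. The values of the other members are given without a p. Rrm1 had 2.99 ± 0.76, Ezh2 had 3.04 ± 0.67, Ube2c had 8.69 ± 0.90 and Mki67 had 7.86 ± 0.85. The highest fitted value was that of Ccnb2, 9.76 ± 1.13, which had 1 UMI in SV cells. Over the 33 tested members the median log2 fold difference was 6.27, with 4.37 for replication and 7.10 for mitotic members, beside −0.41 for all genes tested.

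The remaining members fell between Pcna and Ccnb2. The MCM helicase genes ranged from 3.33 ± 0.72 for Mcm4 to 4.96 ± 0.76 for Mcm3 on the log2 scale, near Gmnn with 4.1996 ± 0.74 and Tyms with 5.42 ± 0.70. Rrm2 was the highest of the 12 replication members tested, with 7.59 ± 0.85. Among mitotic members, the kinases and checkpoint genes Bub1b, Aurkb and Aurka had 5.70 ± 0.83, 5.76 ± 0.82 and 6.35 ± 0.80. The kinetochore genes went from 5.54 ± 0.79 for Cenpf to 6.60 ± 0.79 for Cenpa, and the spindle genes from 5.33 ± 0.75 for Kif23 to 7.34 ± 0.93 for Tpx2. The mitotic cyclins Ccna2 and Ccnb1 had 7.25 ± 0.90 and 7.17 ± 0.90 and their kinase Cdk1 had 8.26 ± 0.89. Every tested mitotic member thus had a larger log2 difference than each MCM gene, and the fitted values of genes with very few SV counts depend on the prior count.

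Erythroid barcodes were the single lineage with sums in more than 1 capture (2 and 3), and B cells and neutrophils could not be tested. Against the mean of the SV types, 35 of 35 members tested were higher in erythroid barcodes in edgeR, beside 17.8% of all 9556 genes tested called higher and 40.1% called in either direction, and Bub1 was filtered out. As in the pooled comparison, most members passed the filter through their blood counts, so this count too is no separate evidence. The log2 fold difference was 10.58 ± 0.37 for Ube2c, 9.65 ± 0.40 for Mki67, 4.03 ± 0.24 for Pcna, 3.62 ± 0.41 for Rrm1 and 3.45 ± 0.36 for Ezh2. These values lean on capture 3. Without it the erythroid sum of capture 2, with 13 barcodes, stood alone, 16 members could be tested and 12 were called, and 502 of all genes were called in place of 3831. The edgeR estimate for Rrm1 was then −6.14 on the log2 scale (adjusted p = 0.598). In the pooled comparison the fit without capture 2 or 3 could not be made.

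Genes of the cycle outside the 36 were described by fixed lists. In the pooled comparison, of other replication genes 19 of 20 tested were higher in blood lineages and none lower, led by Cdc6 (9.90), Tk1 (7.43) and Uhrf1 (6.34 on the log2 scale). Of other mitosis genes 35 of 35 were higher, led by Kif15 (9.30), Melk (8.74) and Casc5 (7.86). Of chromatin and tubulin genes 11 of 11 were higher, led by Hmgb2 (8.15), H2afx (5.50) and Hmgn2 (5.00). As for the members, most of these replication and mitosis genes were tested because of their blood counts. On SV sums alone, 3 and 2 of them passed the filter, beside 9 of the chromatin and tubulin genes. Over all genes tested, 12.4% were called higher.

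The log2 differences of the regulators upstream of the cycle went in both directions. Over all genes tested in the pooled comparison, 12.4% were called higher and 14.4% lower. A single lower gene in a short list is therefore no finding by itself. Of G1 cyclins and kinases 2 of 6 were higher and 1 lower, with log2 fold differences of 3.14 for Cdk6, 2.79 for Ccnd3 and −2.11 for Ccnd2. Ccnd1, a D cyclin, had 1.09 (adjusted p = 0.415 in edgeR). Of E2F and pocket proteins 6 of 10 were higher and 1 lower, led by E2f2 (6.42), E2f8 (6.16) and E2f1 (4.64). On SV sums alone, 4 of the E2F and pocket proteins passed the filter, so most of the 10 were tested because of their blood counts. Their count of higher genes is therefore no separate evidence. Of the G1 list 4 passed on SV sums alone, and of the CDK inhibitors and p53 6. Of the CDK inhibitors and p53, 2 of 7 were higher and 1 lower, with 6.01 for Cdkn2c, 3.62 for Cdkn2d and −3.71 for Cdkn1c. Cdkn1a (p21) had −1.66 (adjusted p = 0.0928 in edgeR) and Cdkn1b (p27) −0.17 (adjusted p = 0.882 in edgeR).

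The blood sums were dominated by hemoglobin transcripts, which were 68.5% of the UMIs of erythroid cells and 74.3% of erythroid nuclei. With sums scaled by their total UMIs alone, and not also by TMM factors, the median over all genes was −1.48 in the pooled comparison. That of the members was 5.22, both on the log2 scale. Of the members tested, 33 of 33 were called. Most passed the filter through their blood counts, so this count too is no separate evidence. The split of all genes then was 782 higher and 4338 lower, against 1196 and 1386 with TMM. For erythroid barcodes these were 623 and 6473 without TMM, 1449 and 3174 with DESeq2 size factors, and 1703 and 2128 as reported. Tbp, a general transcription factor, had 0.90 ± 0.80 (adjusted p = 0.426 in edgeR), and Lmnb1, a lamin of the nuclear envelope, had 4.97 ± 0.72.

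Within the erythroid lineage, the cycling barcodes were those with less hemoglobin. Hemoglobin accumulates as red cell precursors mature, and the last divisions precede the loss of the nucleus. Of erythroid cells with under 25% of UMIs from hemoglobin genes, 7 of 7 were cycling, and this was 9 of 10 from 25 to 50%, 16 of 19 from 50 to 75%, 16 of 28 from 75 to 90% and 2 of 36 above 90%. In the nuclei the same groups held 27 of 28, 30 of 33, 30 of 79, 4 of 125 and 3 of 226 cycling barcodes. The 3 lowest groups of cells have under 20 barcodes each. More hemoglobin leaves fewer other UMIs, with a median of 5258 in the lowest and 381.5 in the highest group of nuclei, so that a count of 5 was harder to reach.

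Levels in CPM were also computed with hemoglobin UMIs taken out of the total, and mitotic members still differed between these groups. In nuclei they stood at 5399, 10208, 8982, 1299 and 1573 from the lowest to the highest group, and in cells at 4710, 8444, 12855, 10512 and 1728. Replication members stood at 2669, 5244, 2468, 96.2 and 129 in nuclei and at 4431, 2827, 5583, 481 and 0 in cells. The share of replication members among member UMIs was 33.1% in the lowest and 7.59% in the highest group of nuclei, and 48.5% and 0% in cells. Replication members were thus low relative to mitotic ones where hemoglobin was above 75%, in cells (4.38% from 75 to 90%) as in nuclei (6.90%). These groups held few member UMIs, 480 and 39 in cells and 145 and 158 in nuclei. In the cluster of cells with 91.7% hemoglobin, the 3 cycling barcodes had a median of 2 members detected. So few members lay behind such counts. Of all 50 cycling erythroid cells, 17 had no replication UMI.

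**Figure D5:**
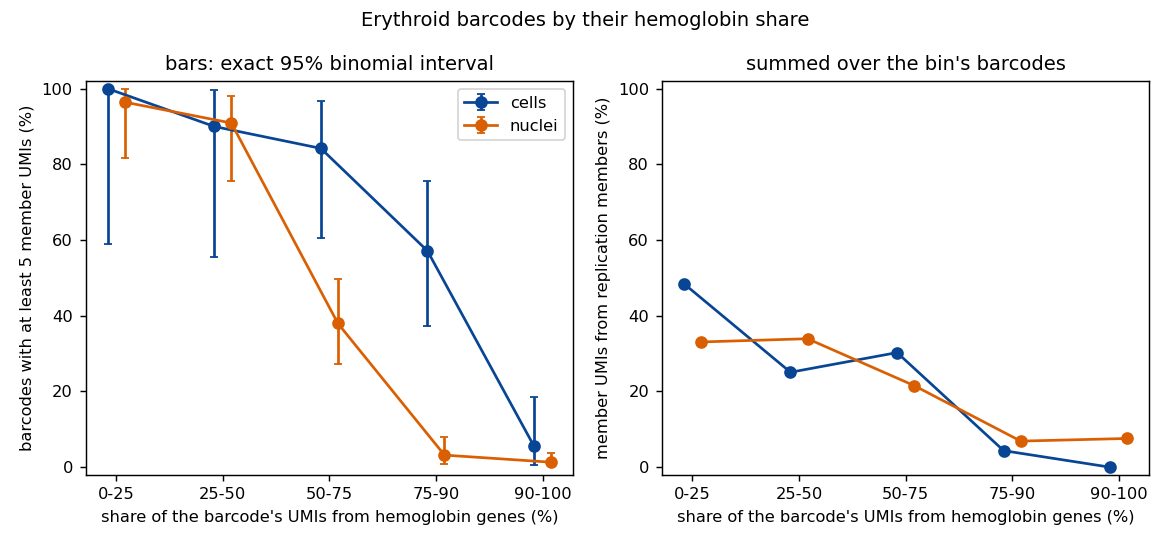
Erythroid barcodes grouped by the share of their UMIs from hemoglobin genes (percent, horizontal axis), cells in blue and nuclei in orange, with the share that was cycling at the left (exact binomial intervals as bars) and the share of member UMIs from replication members at the right. The cycling share in nuclei goes from 96.4% to 1.33%, and the replication share from 33.1% to 7.59%.

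The same order was seen by other erythroid genes. Of erythroid nuclei with a UMI of Klf1, a transcription factor of red cell precursors, 75 of 83 were cycling, and of those without one 19 of 408, at median depths of 6334 and 5158 UMIs. In cells these were 39 of 41 and 11 of 59. The erythroid nuclei fell into clusters, of which 3 were cycling throughout, with 33 of 33, 28 of 28 and 23 of 23 barcodes. A further cluster had 5 of 40, and the other 4 had 5 of 367 in all. The clusters were formed without cell cycle genes, but genes that move with the cycle remained, so their cycling shares are a description only.

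In the B cell lineage, 17 of 34 nuclei with a UMI of Igll1, a surrogate light chain gene of precursor B cells, were cycling, beside 32 of 172 without one. Of nuclei with a UMI of Ms4a1, the CD20 gene of later B cells, 2 of 62 were cycling, beside 47 of 144 without. In cells the corresponding counts were 6 of 8 and 7 of 32 for Igll1, and 0 of 4 and 13 of 36 for Ms4a1. The class in cells also held T cell markers, as given above. Cells with an Igll1 UMI were deeper, with a median of 6397.5 UMIs against 2394, whereas in nuclei the medians were 2281 and 1473.

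In the neutrophil lineage, 13 of 16 nuclei with a UMI of Elane, a protease packed into granules at the promyelocyte stage, were cycling, beside 12 of 91 without. These nuclei include the cluster of uncertain name given above. Of nuclei with a UMI of Retnlg, expressed by mature neutrophils, 4 of 54 were cycling, beside 21 of 53 without. In cells 0 of 7 with Retnlg and 11 of 11 without it were cycling. Mpo went as Elane did, with 8 of 9 nuclei cycling with it and 17 of 98 without. Camp did not split the nuclei, with 14 of 60 cycling with it and 11 of 47 without. In cells these were 4 of 10 and 7 of 8 for Camp. Nuclei with Elane had a median of 5724 UMIs and those without it 2213, so depth moved with the split by Elane. The part that depth had in these splits was not tested.

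The order of the lineages by the level of their members turned with the treatment of hemoglobin. As a share of all UMIs, all members together had a level, in CPM, of 3499 in erythroid cells, 4433 in B cells and 4301 in neutrophils. In nuclei these were 2093, 4519 and 1873, with 881 in the mixed cluster. With hemoglobin UMIs taken out of the total, the level was 11091 CPM in erythroid cells, 4440 in B cells and 4309 in neutrophils. In nuclei they stood at 8141, 4535 and 1884, with 884 in the mixed cluster. Erythroid barcodes were thus highest without hemoglobin, but below B cells as a share of all UMIs, with no test, since B cells and neutrophils had sums in 1 capture.

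Which members were seen in a cycling blood barcode also differed. In the 74 blood cells, Ube2c had a UMI in 81.1%, Birc5 in 78.4%, Mki67 in 77.03% and Top2a in 73.0%, whereas Bub1 had one in 9.46% and Plk1 in 23.0%. Of these cells 50 were erythroid, and Ube2c was in 96% of them, in 46.2% of B cells and in 54.5% of neutrophils. For Ube2c in cycling nuclei these shares were 83.0%, 38.8% and 36%. In the 174 nuclei, the most frequent were Top2a in 75.9%, Birc5 in 71.3% and Mki67 in 70.1%, and Ezh2 was in 67.8%. Bub1 was again rarest, in 13.8%. The median cycling blood barcode had 51 member UMIs in cells (5 to 475) and 38 in nuclei (5 to 242). In the SV types Pcna had a UMI in 16.0% of cells and Mki67 in 0.332%.

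The balance of replication and mitotic members set the sides apart. Replication members gave 30.2% of member UMIs in blood cells and 30.8% in blood nuclei, but 75.9% in SV cells and 70.0% in SV nuclei. By capture the SV share was 89.9%, 68.2% and 81.8%, and in capture 2 the single intermediate barcode gave 154 of the 187 mitotic UMIs of the SV types.

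Among the SV types, Pcna was the only member with enough counts to test. In edgeR it was higher in basal cells than in the mean of the other types by 0.89 ± 0.31 on the log2 scale (adjusted p = 0.0242). That comparison called 26.6% of all 7388 genes, 1117 higher and 850 lower (1359 and 600 without TMM). Basal cells were at 40.8, 57.4 and 34.2 CPM of Pcna in captures 1 to 3, beside 23.1, 29.3 and 25.9 in intermediate and 18.5, 21.2 and 24.1 in marginal cells. The call was lost in DESeq2 and without capture 2. In nuclei Pcna was at 12.0 CPM in basal and 15.9 in intermediate nuclei, so the order was not the same. In marginal, intermediate and spindle/root cells Pcna was not called, with log2 differences of −0.20, 0.12 and −0.81, in comparisons that called 29.0%, 38.4% and 17.1% of all genes.

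Of the cycle genes outside the 36, Cdkn1c (p57, a CDK inhibitor) separated basal cells most. It was higher in basal cells by 5.99 ± 0.18 on the log2 scale (adjusted p = 2.5e-35 in edgeR). Its level in basal cells was 520, 585 and 735 CPM in captures 1 to 3. Marginal cells were at 4.12, 3.71 and 1.51. Stmn1, which destabilises microtubules, was higher in basal cells by 3.11 ± 0.16, and the 2 genes were chosen after their values were seen.

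The 36 members lie on 15 chromosomes, and 14 of them overlap another annotated gene on mm10, 6 on the same strand and 12 on the opposite one. Mcm7, which hosts microRNA genes and lies opposite Cops6 and Ap4m1, had 101 UMIs in SV nuclei. The pseudogene Pcna-ps2, a near copy of Pcna, had 7, 8 and 25 UMIs in the captures of cells and 49 in nuclei, and Ccnb2-ps, a pseudogene of Ccnb2, had 36 in nuclei. The split of reads between these copies and their genes is uncertain.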

How the data were processed

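The authors made 10x Genomics libraries, and the submitters' processing notes name Cell Ranger 2.0.0 and mm10. The deposited values are raw UMI counts per gene and barcode, without normalization, for each capture on its own. The annotation release was not given in the sources used here. No columns of other samples were present (0).

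The 36 members, the markers and the lists of other cycle genes were chosen with earlier results of these data known. The rule by which clusters were named was set after clusters and cycling counts had been seen. A minimum of 200 genes was set per barcode. Scrublet scores came from scanpy 1.11.5, and the highest 0.8% per 1000 barcodes of each capture were removed as likely doublets. Barcodes were clustered in Seurat 5.3.0 (R 4.3.3) with 2000 variable genes, 36 principal components for cells and 42 for nuclei, a resolution of 0.8 and a further round within larger clusters. A class needed at least 3 raised markers, each in at least 10% of barcodes and at least 2 times the median over clusters. The score of the next class had to be under 0.67 of its own. A cluster stayed unnamed if 5 or more of its 10 leading genes were mitochondrial, or if more of them were markers of another class. It also stayed unnamed if its depth was under the usual depth divided by 3 and no leading gene was a marker of its class. All 36 members are named in the text, and of each list of other genes the 3 with the largest difference between pooled blood lineages and SV types.

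Sums per capture and class were fitted in edgeR 4.0.16 with TMM scaling, filterByExpr and a robust quasi-likelihood fit. Sums needed at least 5 barcodes. Sums of a capture share a suspension, which pairs them. Of 23 pairs of sums from the same capture, 21 had a correlation under 0.1 after class means were removed, with a median of 0.039. On simulated counts the pooled fit recovered 62% of 100 genes changed 8-fold and 0% of 100 changed 2-fold (9081 genes), and the erythroid fit 95% and 8% (8288 genes). Alternatives were DESeq2 1.42.0, other scaling, filters, limits, resolutions and class rules, thinning and each capture left out, and one without hemoglobin genes was added after the data were seen. Exact tests and intervals used scipy 1.17.1, and no p-value came from single barcodes. Replicates are captures. In the fits the block takes out the differences between captures. Their p-values therefore rest on how class differences varied from capture to capture, with the estimate of spread partly shared over genes.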

Additional observations from a re-analysis of the deposited data

Results flagged for a closer look

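A signal was present in barcodes that no comparison above used. Of the 916 nuclei removed as likely doublets, 23 held at least 5 member UMIs, which is 2.51% (exact interval 1.60 to 3.74%). The share in all nuclei before any filter, 1.83%, lies inside that interval. With doublets kept, 8 of the 23 fell among erythroid nuclei, 7 among B cell nuclei, 5 among unnamed nuclei, and 1 each among neutrophil nuclei, macrophage nuclei and nuclei with the name T or NK cell-like. In capture 3, 1 removed barcode was cycling and fell among B cells.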

How the results depend on the processing

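With a mean difference of 44.7 points in cells and 20.8% of blood nuclei as reported, the values moved most with the filter on genes (20.0 and 14.7). The share of blood nuclei was 26.3% at a limit of 3, 18.04% at a limit of 10, 18.04% for mitotic and 16.0% for replication members only, 15.8% with classes set per barcode and 16.7% when thinned to 500 UMIs. In cells the last 2 gave 29.0 and 31.9 points, and macrophages counted with blood gave 30.002. Leaving out 1 capture gave 35.2 to 56.9 points. Blood stayed above SV types under each of these settings. Of members called in erythroid barcodes, leave-outs gave 12 to 35, and the log2 difference of Rrm1 was 4.36 without replicate 2 and −6.14 without replicate 3 (adjusted p = 0.598). The pooled fit could not be made without replicate 2 or 3. Among SV types without a filter on low counts, 2 of 35 members were called in intermediate cells, beside 3105 of all 15480 genes. In basal cells 2 of 35 were called, beside 1994 of 15480. With DESeq2, 0 members were called in basal cells, and 0 to 1 in leave-outs. The median log2 difference of members was 5.22 without TMM in the pooled comparison, and in erythroid barcodes 6.36 with DESeq2, 5.76 without TMM and 6.89 to 8.20 in the leave-outs.

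The replication share was, by median over cycling barcodes and then without Pcna and Ezh2, 21.4% and 25.3% in blood cells, 100% and 63.2% in SV cells and 34.0% and 24.6% in blood nuclei, and 54.5% without Pcna and Ezh2 in SV nuclei. Leave-outs gave 25.5 to 30.8% in blood cells and 72.6 to 83.9% in SV cells.

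Genes called among all genes numbered 2582 in the pooled comparison, 5120 without TMM, 5190 without the replicate block and 853 with classes per barcode, and 3831 for erythroid barcodes, 7096 without TMM and 502 without replicate 3. In basal cells 1967 fell to 1051 without replicate 2, and in spindle/root cells 1263 to 738 and 821 in leave-outs. Without the replicate block, 33 pooled and 35 erythroid members were called, as with it, and 33 and 35 without hemoglobin genes. Most of these members were tested because of their blood counts, so equal counts under these settings are no separate evidence. DESeq2 did not call 1 of the pooled and 7 of the erythroid members, and classes per barcode did not call 1 pooled member. The cause was not tested. In SV types 35 members had too few counts to test. The leave-outs of the make-up of cycling cells and of the mixed cluster were chosen after the data were seen.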

Other observations

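The unnamed barcodes with at least 5 member UMIs were 2 of 1475 cells and 3 of 2786 nuclei. One cell of capture 3 held 6 UMIs of Cenpf and of no other member. Another held 11 UMIs of 6 members, among them Cdc20 with 3, in a barcode of 1597 UMIs of which 82.2% were mitochondrial. One nucleus held 16 member UMIs of 10 members and 396 UMIs of erythroid markers. Another held 4 UMIs of Tpx2 and 1 of Mcm4.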
